A study of Mus musculus with 8 samples.

Results

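Integrins are adhesion receptors made of an alpha and a beta chain, and 10 of these chains were followed here across the cell types and the mice of a single-cell RNA sequencing experiment on colonic lamina propria. The chains were *Itgb1*, *Itgb2*, *Itgb5*, *Itgb7*, *Itga4*, *Itgal*, *Itgam*, *Itgax*, *Itgae* and *Itgav*, chosen by name from the 24 integrin chain genes among 16889 genes in the table of unique molecular identifiers (UMIs). All mice were female CD98ΔCX3CR1 animals, which carry a tamoxifen-inducible Cre recombinase under control of *Cx3cr1* together with floxed alleles of CD98hc, the product of *Slc3a2*. The 4 control mice received corn oil and the 4 cKO mice received tamoxifen (100 µl of a 20 mg/ml solution per injection by the sample labels, on 5 days, while the study's methods give the dose by body weight), and cells were taken on day 7. Effects of tamoxifen itself and of the deletion cannot be told apart in this design, and recombination is limited to cells in which *Cx3cr1* is or was active. Cells were sorted as CD11b+ with CCR2 or CD64 on the surface, and each mouse had a well of its own. CD11b is the protein product of *Itgam*, so a member of the set was part of the gate in both groups.

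CD98hc is known as the heavy chain of amino acid transporters and as a membrane partner of integrin beta chains, through which it takes part in adhesion signalling. The leukocyte chain β2 (*Itgb2*) pairs with αL (*Itgal*), αM (*Itgam*) or αX (*Itgax*), known as CD11a, CD11b and CD11c, which bind ICAM proteins and complement fragments. The chain β7 (*Itgb7*) pairs with α4 (*Itga4*) to bind MAdCAM on gut vessels, or with αE (*Itgae*, CD103) to bind E-cadherin on epithelium. The chains β1 (*Itgb1*), αv (*Itgav*) and β5 (*Itgb5*) are parts of receptors for fibronectin, vitronectin and other matrix proteins, and αv heterodimers can also activate latent TGF-β.

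After filtering, 3213 of 5947 barcodes were kept, 1863 of them from control and 1350 from cKO mice, with 497531 to 3762314 UMIs per mouse. Control 3 and cKO 5 gave only 85 and 83 cells. A doublet caller marked between 0.396% and 5.88% of the cells in the other mice and 28.9% in cKO 5, and 8 barcode sequences of kept cells occurred in more than 1 well (25 over all barcodes). Cells were grouped into 9 clusters without use of any integrin gene, and clusters were named only where marker genes led them. Monocyte-like cells (433), macrophage-like cells (407), a second macrophage-like cluster of low depth (252), dendritic cell-like cells (539), lymphoid-like cells (185) and stromal-like cells (86) were found. The remaining 3 clusters kept the name of their leading gene, which was *Cebpb* (281 cells), *Saa3* (521 cells) or *Fam213b* (509 cells). *Cebpb*-led cells were also shallow, with a median of 2032 UMIs, beside 1156 in the low-depth cluster and 5261 in macrophage-like cells. Although the samples are labelled monocytes and macrophages, the dendritic, lymphoid and stromal clusters thus also passed the gate. *Slc3a2* was at 358, 264, 233 and 493 CPM (UMIs of the gene per 1000000 UMIs of the sum) in control mice 1 to 4 and at 291, 357, 323 and 309 CPM in cKO mice 5 to 8. The kit reads the 3′ end of transcripts, which lies outside the excised part, so this level does not check the deletion.

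UMIs of every member were found in at least 214 cells (*Itgae*) and at most 1870 cells (*Itgb2*), and all 10 passed the filter on low counts in the comparison of all cells. *Itgal*, *Itgam* and *Itgax* lie on the plus strand of chromosome 7 (GRCm38, GENCODE vM21), at chr7:127296260-127335138, chr7:128062640-128118491 and chr7:128129547-128150657. Only 11055 bases separate the end of *Itgam* from the start of *Itgax*. Levels of these neighbours correlated at 0.56 over the sums of a mouse and a cell type. They differed in control monocyte-like cells (138 CPM of *Itgam*, 10.2 of *Itgax*) and dendritic cell-like cells (46.1 and 116 CPM). *Itgb7* is at chr15:102215995-102231944 on the minus strand, and the remaining members lie on chromosomes 2 (*Itga4*, *Itgav*), 8 (*Itgb1*), 10 (*Itgb2*), 11 (*Itgae*) and 16 (*Itgb5*). Exons of *Itgam* overlap those of *Gm49368* on the same strand, a gene that had 278 UMIs beside the 2604 of *Itgam*. Only reads that map to a single gene were counted, so how many *Itgam* reads this overlap cost is not known. Exons of *Itga4* overlap *Cerkl* on the opposite strand, which had 19 UMIs.

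The 250 bases before the start site are printed below for the neighbours *Itgam* and *Itgax* and for *Itgb7* and *Itgb5*, the beta chains with the most opposed profiles between dendritic and macrophage-like cells. The start sites and sequences are those of RefSeq (GRCm38.p6), read 5′ to 3′ on the strand of the gene, and capitals mark the letters AGGAAG or their reverse complement CTTCCT, a core that factors of the ETS family such as PU.1 can bind. They cover chr7:128062390-128062639, chr7:128129300-128129549, chr15:102231936-102232185 and chr16:33829415-33829664 in the order printed.
Itgam: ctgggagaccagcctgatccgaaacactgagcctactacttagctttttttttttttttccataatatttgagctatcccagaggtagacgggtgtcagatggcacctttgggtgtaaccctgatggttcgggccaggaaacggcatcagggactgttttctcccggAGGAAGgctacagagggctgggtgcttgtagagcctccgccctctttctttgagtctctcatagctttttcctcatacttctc
Itgax: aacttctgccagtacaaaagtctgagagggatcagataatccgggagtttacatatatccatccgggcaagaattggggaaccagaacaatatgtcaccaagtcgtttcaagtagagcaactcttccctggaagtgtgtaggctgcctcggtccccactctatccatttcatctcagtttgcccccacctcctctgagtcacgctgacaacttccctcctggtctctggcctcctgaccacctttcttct
Itgb7: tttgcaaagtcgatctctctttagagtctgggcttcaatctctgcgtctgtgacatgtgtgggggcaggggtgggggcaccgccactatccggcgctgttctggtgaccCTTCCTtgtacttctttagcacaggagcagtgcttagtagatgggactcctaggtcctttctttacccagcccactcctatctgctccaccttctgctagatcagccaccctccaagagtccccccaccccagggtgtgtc
Itgb5: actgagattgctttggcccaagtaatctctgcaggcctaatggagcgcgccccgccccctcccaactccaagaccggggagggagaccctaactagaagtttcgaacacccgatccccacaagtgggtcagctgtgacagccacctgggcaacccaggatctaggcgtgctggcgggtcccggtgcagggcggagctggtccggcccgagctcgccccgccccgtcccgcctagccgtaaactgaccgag
The motif was present 1 time before *Itgam* (at position -83 from the start site) and 1 time before *Itgb7* (at -141), and it was absent from the windows of *Itgax* and *Itgb5*. It was found on either strand in 29.5% of all 32851 promoter windows of this length, so a match is a description of the letters and not a binding site. Of the 10 members, 7 had a sequence in the table, with *Itgb1* (2 matches), *Itgav* (1) and *Itga4* (0) besides those printed, and the letters TATAAA (either strand, 12.4% of all windows) were found in none of these 7.

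*Itgae* was almost confined to dendritic cell-like cells, where control mice 1 to 4 had 98.7, 122, 119 and 85.3 CPM. Of the 452 *Itgae* UMIs of control mice, 98.5% came from this cluster, which held 40.2% of all UMIs, and of the 102 UMIs of cKO mice 90.2% did, from 13% of all UMIs. The next cell type in order, lymphoid-like cells, had 7.75 ± 7.9 CPM (SD, n = 3), and its highest mouse stayed below the lowest mouse of the dendritic cell-like cluster. A UMI of *Itgae* was found in 165 of 439 control dendritic cell-like cells (37.6%, 95% Wilson interval 33.2 to 42.2%), against 2 of 331 macrophage-like cells (0.604%), which serve as background. The median depth was 9343 UMIs in the former and 5288 in the latter, and with every cell thinned to 1000 UMIs the share in dendritic cell-like cells was 7.64%. In monocyte-like cells 0 of 186 control cells had a UMI, so that UMI-positive cells could make up at most 1.61% at this depth, a limit that does not bound the share of cells with the transcript. Intervals and limits of this kind cover counting error only.

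The dendritic cell-like cluster split into sub-clusters that differed sharply in alpha chains. In type 1-like dendritic cells (280 cells, led by *Xcr1*), *Itgae* was at 164 ± 12.5 CPM over 4 control mice, while type 2-like dendritic cells (170 cells, led by *Mmp12*, *Ccl9*, *Cd14*, *Cxcl2*, *Cd209a*, *Mgl2*, *Fcgr3*, *Osm*, *Clec10a* and *Sirpb1c*, of which *Cd209a*, *Mgl2* and *Clec10a* are the 3 markers of the name and *Cd14* and *Fcgr3* are also known from monocytes and macrophages) had 5.55 ± 6.3 CPM over 3 control mice. *Itgam* showed the opposite order, with 9.65 ± 8.4 CPM in type 1-like and 118 ± 18.4 CPM in type 2-like cells. *Itgax* was at 90.6 ± 13.8 CPM and 164 ± 72.0 CPM, and the mice of both sub-clusters overlapped. The mice did not overlap between both sub-clusters for *Itgae* or *Itgam*, also with the cKO mice included (157 and 159 CPM of *Itgae* in type 1-like cells, 18.0 CPM in type 2-like cells). These sub-clusters were built on other genes of the same cells, and no test was made between them. The third sub-cluster (89 cells, led by *Fabp5*, *Ccl22* and others) was left unnamed and had *Itgax* at 187 ± 14.2 CPM over 2 control mice.

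**Figure D1:**
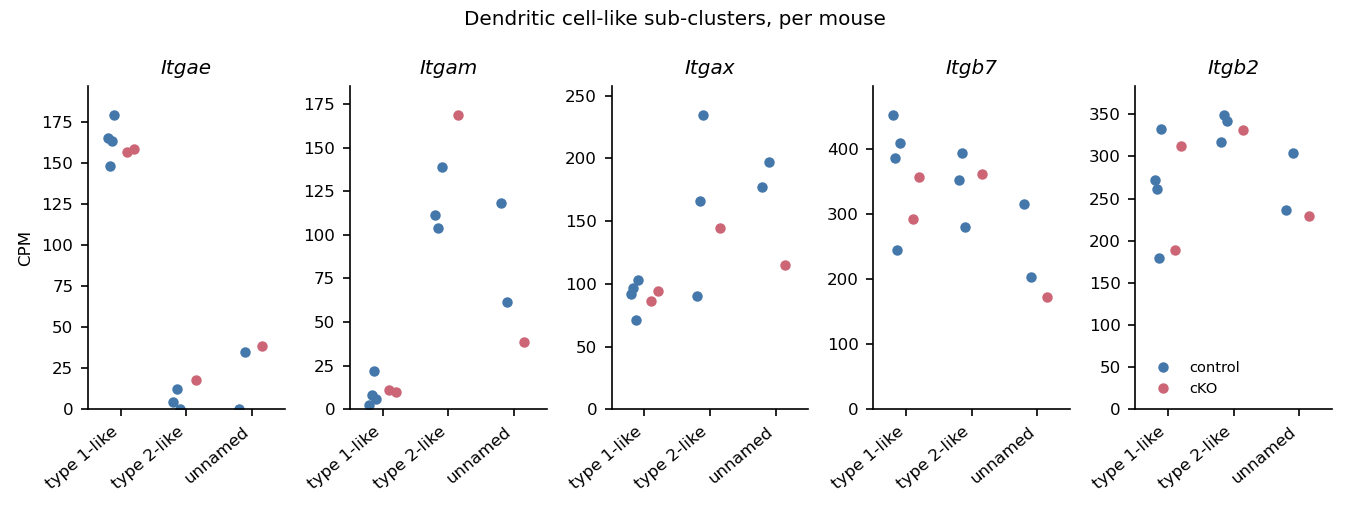
CPM (vertical axis) of 5 integrin chains in the sub-clusters of dendritic cell-like cells (horizontal axis), with a point for each mouse with at least 10 cells, control in blue and cKO in red. *Itgae* stood at 149 to 179 CPM in the type 1-like cells of control mice and at 0 to 12.5 CPM in their type 2-like cells, and *Itgam* showed the reverse order.

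*Itgb7*, the partner of both α4 and αE, was highest in lymphoid-like cells of control mice (411, 536 and 450 CPM in mice 1, 2 and 4). Dendritic cell-like cells followed with 410, 382, 288 and 309 CPM in mice 1 to 4, and monocyte-like cells with 248, 172 and 236 CPM in mice 1, 2 and 4. Each of these 3 types stood apart from its neighbour in the order, with no overlap between mice. Macrophage-like cells had 17.6, 14.4 and 35.4 CPM, so that the beta chain was lower in macrophage-like than in monocyte-like cells of each of these mice. Between *Saa3*-led cells (71.2 CPM), *Cebpb*-led cells (40.4 CPM), *Fam213b*-led cells (20.0 to 65.2 CPM) and macrophage-like cells (22.5 CPM) the ranges of neighbours overlapped.

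*Itga4* varied much less than its partner β7, from 38.5 CPM in *Saa3*-led cells to 94.9 ± 26 CPM (n = 3) in monocyte-like cells, the low-depth cluster set aside. Among control cells with a UMI of *Itga4*, 85.3% of the 211 dendritic cell-like cells also had one of *Itgb7*, compared with 65.5% of 55 monocyte-like and 4.11% of 73 macrophage-like cells. With or without *Itga4*, *Itgb7* was found in 80.6%, 47.8% and 9.06% of all control cells of these clusters, in the same order. For *Itgb1*, the other partner of α4, the shares among cells with *Itga4* were 55.9% in dendritic cell-like and 58.9% in macrophage-like cells. In monocyte-like cells, 22 of the 55 had both. With or without *Itga4*, *Itgb1* was found in 49.9% of dendritic cell-like, 49.2% of macrophage-like and 30.1% of monocyte-like control cells. Of 165 dendritic cell-like cells with *Itgae*, 92.7% also had *Itgb7*, which was found in 80.6% of all cells of that cluster. Cells with a UMI of any chain tend to be deeper, and whether depth set these shares was not tested.

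Among the β2 integrins, *Itgb2* was present in all hematopoietic clusters, with a 3.39-fold span between the highest (monocyte-like, 340 ± 69 CPM, n = 3) and the lowest (*Cebpb*-led, 100.2 ± 49 CPM, n = 3) of them, and every neighbour in the order overlapped. The alpha chains differed more. *Itgam* was highest in *Cebpb*-led (261 ± 36 CPM), *Saa3*-led (256 ± 48 CPM) and macrophage-like cells (234 ± 33 CPM), followed by *Fam213b*-led cells (180 ± 36 CPM). Monocyte-like cells had 156, 139 and 118 CPM of *Itgam* in control mice 1, 2 and 4, below all mice of the types above them and above all dendritic cell-like values (46.1 ± 14 CPM, n = 4). Lymphoid-like cells had 7.47 CPM, with a UMI in 2 of 91 control cells (2.2%), although the gate was on CD11b protein.

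*Itgax* was near equal in dendritic cell-like (116 ± 36 CPM, n = 4) and macrophage-like cells (109 ± 29 CPM, n = 3) and was at only 6.79, 19.1 and 4.71 CPM in monocyte-like cells of control mice 1, 2 and 4. *Itgal* was highest in monocyte-like cells (96.2 ± 25 CPM) and lower in macrophage-like (40.3 ± 13 CPM) and dendritic cell-like cells (28.2 ± 18 CPM), although neighbours in its order overlapped throughout. A UMI of both *Itgam* and *Itgb2* was found in 41.7% of 331 macrophage-like cells (36.5 to 47.1%) and in 30.1% of 186 monocyte-like cells (24.0 to 37.0%). Both *Itgax* and *Itgb2* were found in 53.1% of 439 dendritic cell-like cells (48.4 to 57.7%) and in 1.61% of monocyte-like cells (0.55 to 4.63%). With or without *Itgb2*, *Itgax* was found in 61.5% and 2.69% of these cells. The median depth of these clusters was 9128 and 4661 UMIs over both groups, and its part in the shares was not tested.

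Among the hematopoietic clusters, *Itgb5* and *Itgav* were highest in macrophage-like and *Cebpb*-led cells, which overlapped for both chains. *Itgb5* was at 115, 145 and 142 CPM in macrophage-like cells of control mice 1, 2 and 4, at 30.2 ± 24 CPM in their monocyte-like cells and at 3.95 ± 1.9 CPM in dendritic cell-like cells (n = 4). *Itgav* was at 67.5 ± 16 CPM in macrophage-like, 22.6 ± 2.0 CPM in monocyte-like and 7.84 ± 5.3 CPM in dendritic cell-like cells. *Cebpb*-led cells had 120 ± 5.1 CPM of *Itgb5* and 66.8 ± 43 CPM of *Itgav* (n = 3), and the low-depth macrophage-like cluster had 84.2 ± 37 CPM of *Itgb5*. Only 23 *Itgav* UMIs came from *Cebpb*-led cells over all control mice. A UMI of *Itgav* was found in 26.0% of control macrophage-like cells and in 29.4% of 68 control stromal-like cells. Stromal-like cells, which were not ranked, held 8.45% of the control *Itgav* UMIs from 3.15% of all control UMIs. Macrophage-like cells held 40.5% from 17.6%. Of 86 macrophage-like cells with *Itgav*, 58.1% also had *Itgb5* (45.9% of all cells of the cluster). *Itgb1* had a span of 3.70-fold over the hematopoietic clusters, from 32.9 ± 9.6 CPM in lymphoid-like to 122 ± 28 CPM in macrophage-like cells, and each neighbour overlapped. Its highest value, 513 CPM, was in stromal-like cells of the single control mouse with enough of them. The leukocyte chain *Itgb2* was at 14.1 CPM in the same sum. Over all control mice, 54 of 68 stromal-like cells had a UMI of *Itgb1* (79.4%).

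**Figure D2:**
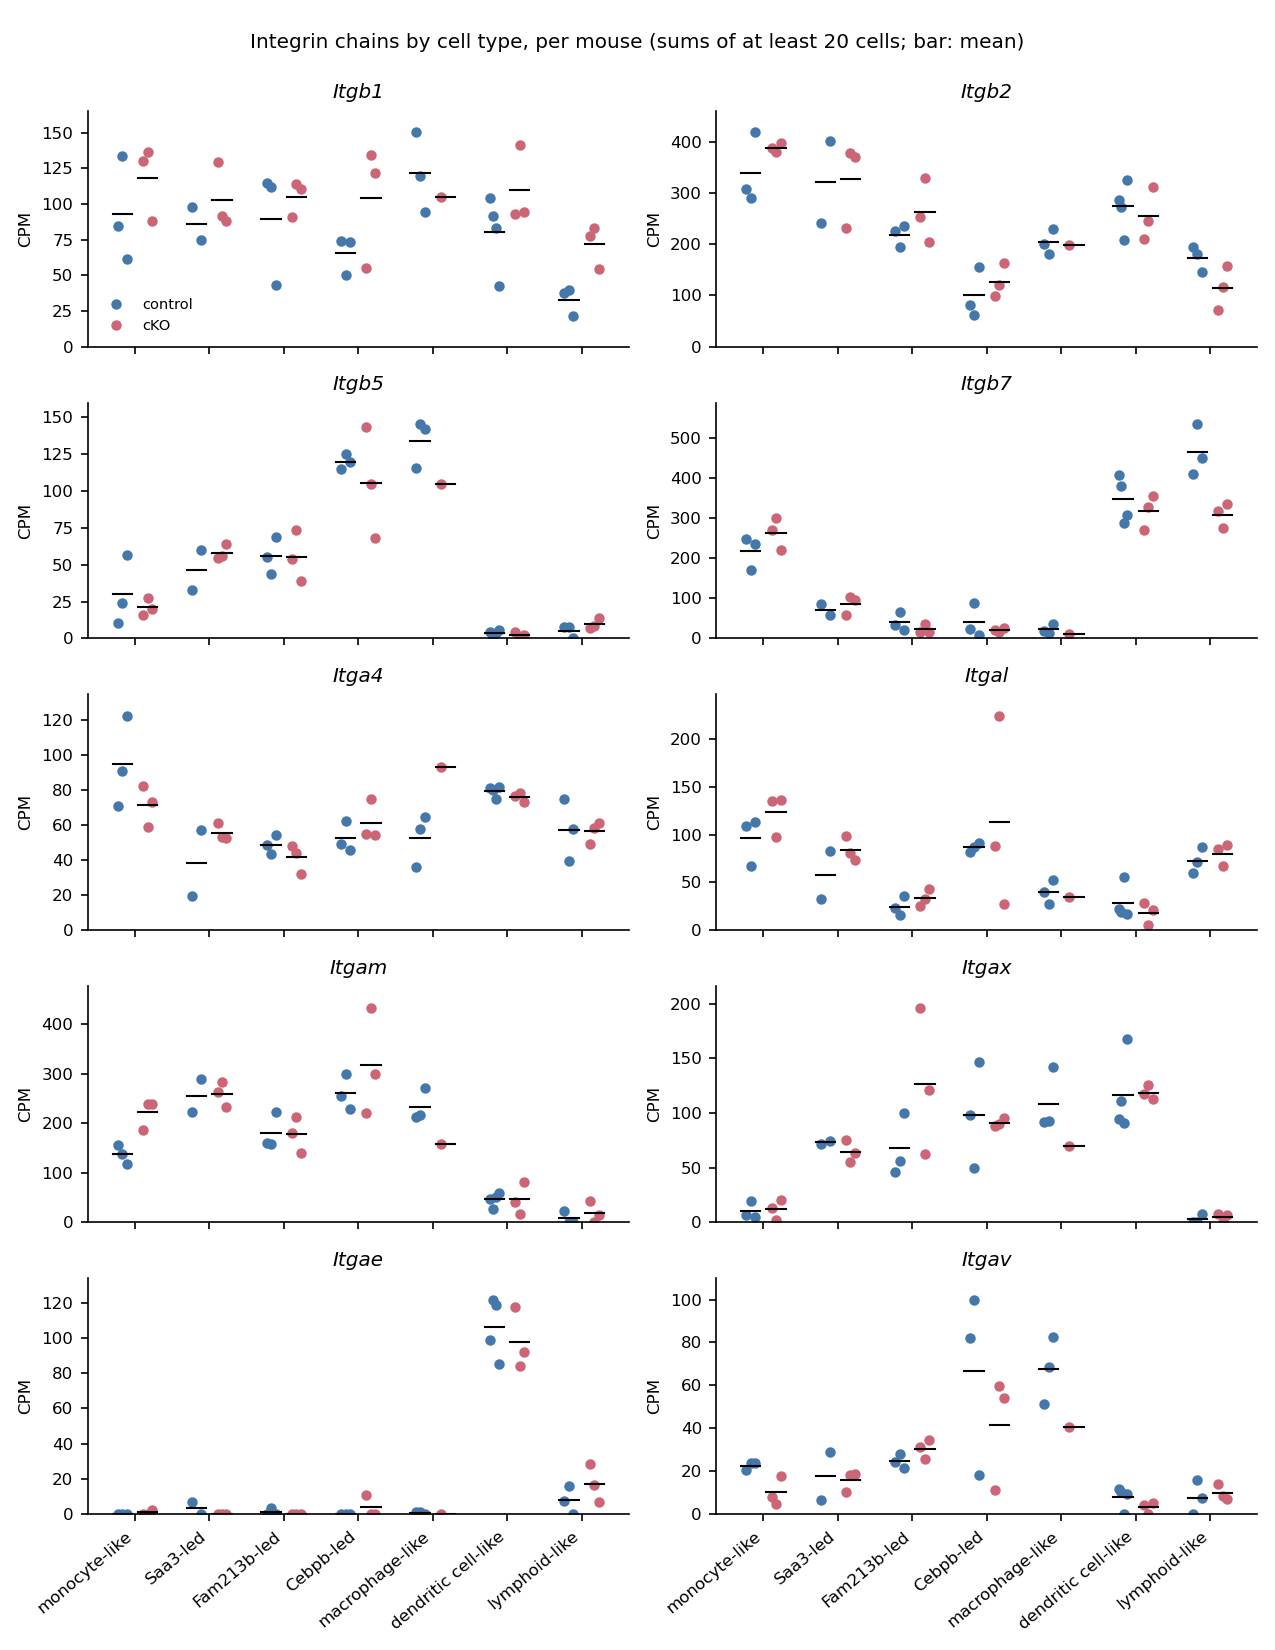
CPM (vertical axes) of the 10 integrin chains in 7 cell types (horizontal axis), with a point for each mouse with at least 20 cells of the type, control in blue and cKO in red, and a bar at the mean. *Itgae* is seen in dendritic cell-like cells at 85.3 to 122 CPM in control mice, *Itgb7* is higher in monocyte-like than in macrophage-like cells, and *Itgb5* shows the reverse order. The macrophage-like type has a single cKO mouse. The low-depth macrophage-like and the stromal-like cluster are not drawn.

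Monocyte-like and macrophage-like cells were next compared within each mouse, as the difference of log2(CPM + 1). In the 4 mice with at least 20 cells of both types (control 1, 2 and 4 and cKO 8), *Itgb7* (3.52 ± 0.61, SD), *Itgal* (1.42 ± 0.37) and *Itgb2* (0.79 ± 0.18) were higher in monocyte-like cells in 4 of 4 mice. *Itgax* (-3.04 ± 1.32), *Itgb5* (-2.39 ± 0.85) and *Itgav* (-1.43 ± 0.26) were lower in 4 of 4 mice. With 4 mice the two-sided exact sign-flip test cannot go below p = 0.125, which these 6 chains reached. How many of all genes kept 1 sign in these 4 mice was not counted. With at least 10 cells per type, 7 mice could be compared and the same 6 chains had p = 0.0156, the smallest that 7 mice allow (exact sign-flip test, not adjusted, 10 chains tested). Of 11391 genes past the filter on low counts, 11.6% kept 1 sign in all 7 mice, genes that built the clusters included. Their mean differences were then 4.31 (*Itgb7*), 1.88 (*Itgal*), 0.67 (*Itgb2*), -3.24 (*Itgax*), -2.10 (*Itgb5*) and -1.45 (*Itgav*), each with 7 of 7 mice on 1 side. *Itgb1* (-0.22, p = 0.172), *Itga4* (0.44, p = 0.141), *Itgam* (0.05, p = 0.875) and *Itgae* (-0.07, p = 1) had mice on both sides in the same exact test. The cell types were defined by other genes of the same cells, so these p-values describe how regularly the mice showed a difference between clusters.

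Dendritic cell-like cells differed from macrophage-like cells by 6.06 ± 0.51 for *Itgae* and 4.25 ± 0.79 for *Itgb7*, and by -4.90 ± 0.77 for *Itgb5*, -2.61 ± 0.42 for *Itgav* and -2.06 ± 0.85 for *Itgam*, in 4 of 4 mice each. *Itgb1* (-0.55), *Itgb2* (0.57), *Itgal* (-0.92) and *Itgax* (0.31) also kept 1 sign in these 4 mice. The share of all genes that did so in 4 mice was not counted, so the number of chains has no background here. With at least 10 cells per type, the former 5 chains kept 1 sign in 6 of 6 mice (p = 0.0313, the smallest possible in the exact sign-flip test), and *Itgb1*, *Itgb2*, *Itga4*, *Itgal* and *Itgax* had mice on both sides. Of all 11391 genes, 21.0% kept 1 sign in these 6 mice. Both monocyte-like and dendritic cell-like cells thus had more β7 and less β5 and αv transcript than macrophage-like cells of the same mice.

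**Figure D3:**
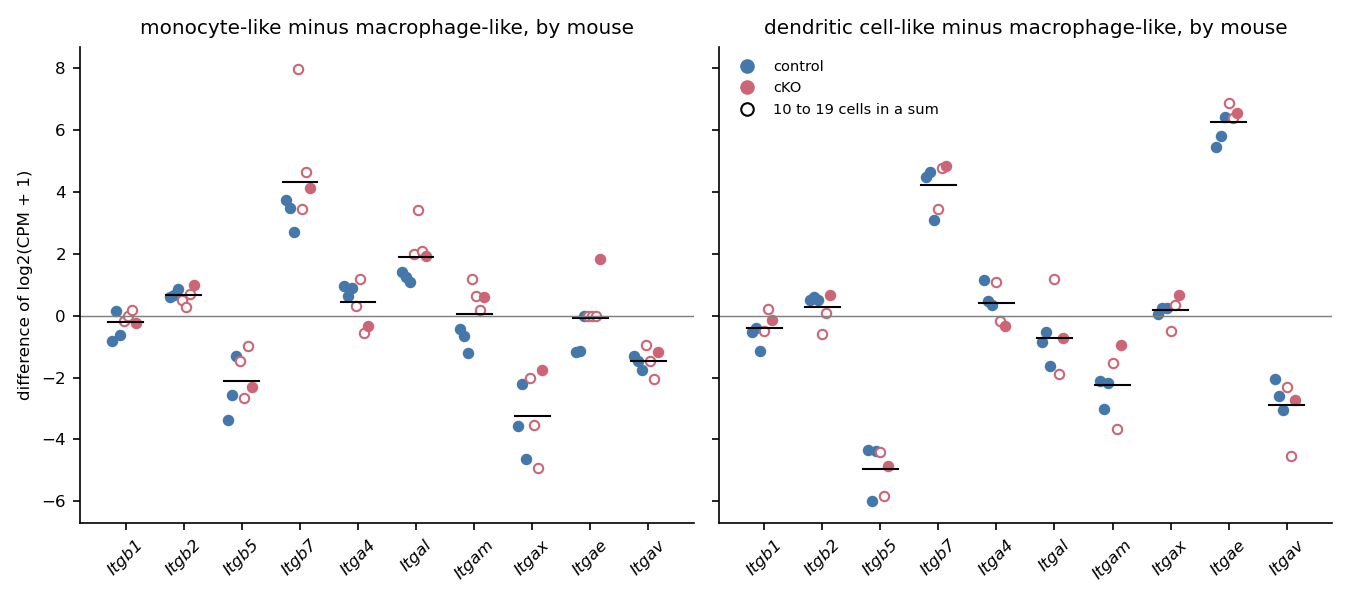
Difference of log2(CPM + 1) (vertical axis) between monocyte-like and macrophage-like cells (left) and between dendritic cell-like and macrophage-like cells (right) for the 10 integrin chains, with a point for each mouse and a bar at the mean. Open points rest on 10 to 19 cells in at least 1 of both sums. All 7 mice lie above 0 for *Itgb7* in the left panel, with the value of 7.99 from cKO 5, whose macrophage-like cells had no UMI of it, and all 6 mice lie below 0 for *Itgb5* in the right panel.

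To ask which integrin chains changed after deletion of CD98hc, UMI counts of all kept cells were summed per mouse and compared between cKO and control with the quasi-likelihood test of edgeR. Of the 10 members, 1 passed an adjusted p of 0.05, while 4.48% of all 11387 genes tested passed it. *Itgae* fell, with 34.3, 58.4, 50.9 and 34.3 CPM in control mice 1 to 4 and 24.1, 20.6, 7.24 and 16.6 CPM in cKO mice 5 to 8. The groups did not overlap, and the log2 fold change was -1.38 ± 0.32 (SE), with an adjusted p of 0.0315. The call depended on single mice: without control 1, 2 or 3 or cKO 7 or 8 the adjusted p was between 0.0525 and 0.118, without both mice of fewest cells it was 0.0503, and without doublet calls it was 0.0679.

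In bulk sums of this kind, fewer cells of a type and less RNA of a gene per cell cannot be told apart. The share of dendritic cell-like cells, the source of *Itgae* UMIs, moved with this result. It was 20.0%, 27.3%, 24.7% and 24.6% of kept cells in control mice 1 to 4 and 8.43%, 7.74%, 4.75% and 9.91% in cKO mice 5 to 8 (24.2% against 7.71% on average, exact permutation p = 0.0286, the smallest possible with 4 against 4 mice, and 0.0857 adjusted over 9 clusters). The summed level of 14 dendritic cell markers was between 731 and 1033 CPM in control and between 348 and 446 CPM in cKO mice. Within dendritic cell-like cells *Itgae* was at 106 ± 17 CPM in 4 control mice and at 97.6 ± 18 CPM in 3 cKO mice, with overlapping groups and a log2 fold change of -0.20 (adjusted p = 0.944, edgeR). In the sums without lymphoid-, stromal- and dendritic cell-like cells, *Itgae* no longer passed the filter on low counts.

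*Itgam* was at 126, 101, 141 and 143 CPM in control mice 1 to 4 and at 187, 157, 229 and 163 CPM in cKO mice 5 to 8. All cKO mice were above all control mice, and the log2 fold change of 0.63 ± 0.18 had an adjusted p of 0.0682 in edgeR and of 0.0496 in DESeq2. *Itgal* was at 35.9, 26.9, 64.5 and 43.4 CPM in control and at 62.3, 71.3, 73.2 and 63.9 CPM in cKO mice. Control 3 lay within the cKO range, and the log2 fold change was 0.86 ± 0.24 (adjusted p = 0.062 in edgeR, 0.0405 in DESeq2 and 0.0159 in edgeR without control 3). Over 18 alternatives (other tests, filters or mice left out) the adjusted p of *Itgal* was between 0.0148 and 0.191. It stayed above 0.05 in 12 of them. That of *Itgam* was between 0.0385 and 0.743 and stayed above 0.05 in 16 of 18. *Itgb7* was lower in all cKO mice (125, 146, 149 and 147 CPM) than in all control mice (188, 225, 160 and 176 CPM), with a log2 fold change of -0.30 ± 0.14 and an adjusted p of 0.259. Of the 10 members, *Itgae*, *Itgam* and *Itgb7* thus had groups without overlap, against 12.3% of all genes tested.

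*Itgb2* had a log2 fold change of 0.36 (95% interval -0.04 to 0.77), and *Itgb1* of 0.18 (-0.30 to 0.66). For *Itga4* (0.12, -0.25 to 0.50), *Itgb5* (0.09, -0.71 to 0.89), *Itgax* (-0.20, -0.65 to 0.24) and *Itgav* (-0.30, -0.81 to 0.22) the intervals also held 0. *Itgb1* had the widest spread of control mice relative to cKO mice, with 126, 111, 110 and 56.2 CPM in control mice 1 to 4 and 102.5 to 110 CPM in cKO mice. The median log2 fold change of the 10 members was 0.11, and that of all genes tested was -0.03.

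**Figure D4:**
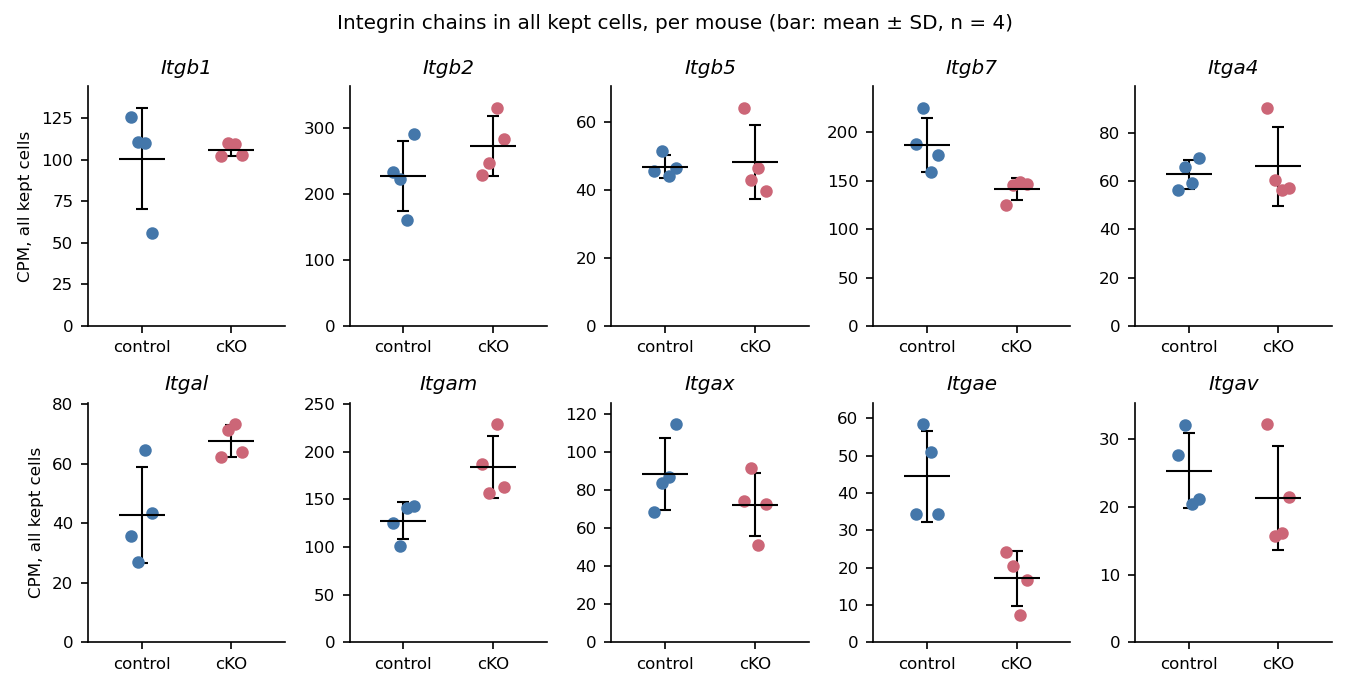
CPM over all kept cells (vertical axes) of the 10 integrin chains in control (blue) and cKO mice (red), with a point for each mouse and bars for mean ± SD (n = 4). *Itgae* ranges from 34.3 to 58.4 CPM in control and from 7.24 to 24.1 CPM in cKO mice, while *Itgb1* overlaps between the groups.

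When lymphoid-, stromal- and dendritic cell-like cells were left out, the order of the members changed. *Itgb7* then rose, with 58.8, 52.9, 27.4 and 58.5 CPM in control mice 1 to 4 and 86.8, 103.8, 127 and 87.7 CPM in cKO mice 5 to 8. The groups did not overlap, and the log2 fold change was 0.999 ± 0.21 with an adjusted p of 0.0163 (edgeR). It was the only one of 9 members tested that passed, against 3.2% of 10833 genes. *Itgb7* and *Itgal* had groups without overlap, as had 8.97% of the genes. Without control 2 or cKO 7 the adjusted p of *Itgb7* was 0.0622 and 0.0733, and with each other mouse left out it was between 0.0117 and 0.0435. The direction of *Itgb7* was thus opposite to that over all cells, where 75.3% of its control UMIs and 29.2% of its cKO UMIs came from dendritic cell-like cells. Among the cells left, *Itgb5* had a log2 fold change of -0.53 (adjusted p = 0.186), *Itgav* of -0.73 (0.175), *Itgal* of 0.66 (0.116) and *Itgam* of 0.14 (0.743).

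The mix of the remaining cells also moved with the condition. Monocyte-like cells, with high *Itgb7*, made up 15.4%, 15.3%, 5.36% and 14.6% of them in control mice 1 to 4 and 23.9%, 26.8%, 18.9% and 20.6% in cKO mice 5 to 8. They were 3.53% to 11.1% of all kept cells of control and 16.4% to 22.1% of those of cKO mice (exact permutation p = 0.0286, 0.0857 adjusted), and macrophage-like cells had shares of 15.8% and 7.15% (p = 0.2 in the same exact test, 0.3 adjusted). *Saa3*-led cells had the largest difference in mean share of the 9 clusters, with 5.07% of kept cells in control and 24.9% in cKO mice (p = 0.0571 in the same exact test, 0.129 adjusted). Of the cells left they were 6.55%, 1.87%, 0% and 21.4% in control mice 1 to 4 and 12.7%, 22.6%, 53.1% and 28.1% in cKO mice 5 to 8, and cKO 7 gave 231 of their 402 cKO cells. They held 1.75% of the control and 19.9% of the cKO UMIs of *Itgb7* over all cells. Within monocyte-like cells *Itgb7* was at 248, 172 and 236 CPM in control mice 1, 2 and 4 and at 271, 301 and 222 CPM in cKO mice 6, 7 and 8, which overlapped (log2 fold change 0.30, adjusted p = 0.896). What part the mix of cells had in the change of *Itgb7* was not tested.

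**Figure D5:**
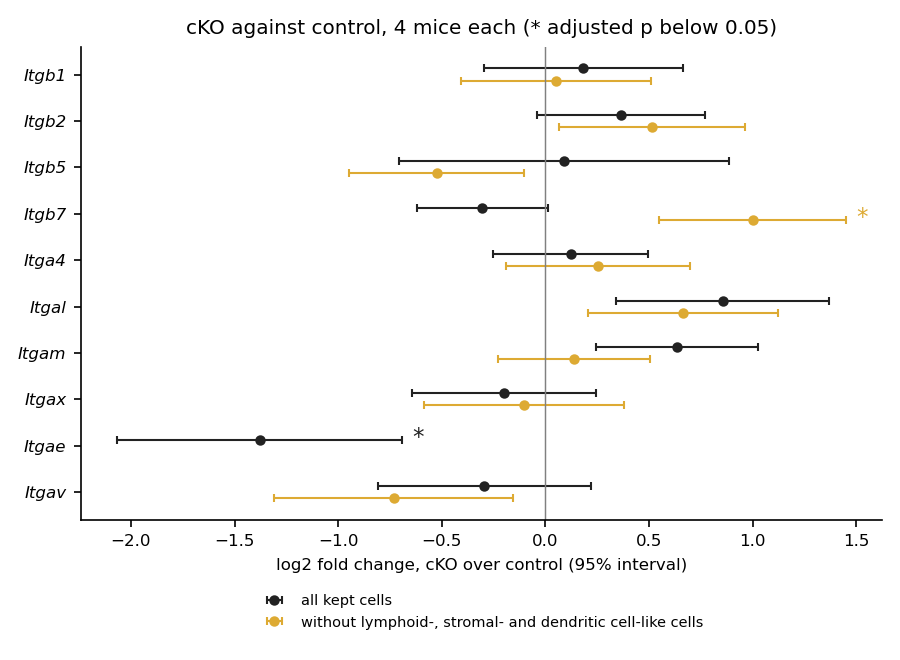
Log2 fold change of cKO over control (horizontal axis) with 95% intervals for the 10 integrin chains, over all kept cells (black) and without lymphoid-, stromal- and dendritic cell-like cells (yellow), 4 mice per group. Asterisks mark an adjusted p below 0.05, which *Itgae* reached over all cells and *Itgb7* (0.999) in the cells left, while *Itgb7* over all cells was at -0.30.

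No member passed the test within a single cell type. In 7 types with at least 2 mice per group, 0 of 70 tests (10 members in each) passed an adjusted p of 0.05 in edgeR, in DESeq2, in the likelihood ratio test of edgeR and in limma-voom, and 3 of them had an unadjusted p below 0.05 in edgeR (3 in DESeq2, 5 in the likelihood ratio test and 4 in limma-voom). Of all 11355 genes, 0.0264% passed in *Cebpb*-led, 0.106% in lymphoid-like, 0.123% in low-depth macrophage-like, 0.361% in dendritic cell-like, 0.449% in monocyte-like, 0.52% in *Saa3*-led and 0.74% in *Fam213b*-led cells. These shares count adjusted p-values and are no background for the unadjusted counts. *Itgam* was at 156, 139 and 118 CPM in monocyte-like cells of control mice and at 186, 239 and 240 CPM in those of cKO mice (log2 fold change 0.71 ± 0.31, adjusted p = 0.664 in edgeR). *Itgax* was at 46.3, 55.9 and 100.1 CPM in *Fam213b*-led cells of control mice 1, 2 and 4 and at 196, 62.4 and 121 CPM in those of cKO mice 6, 7 and 8 (0.88 ± 0.31, adjusted p = 0.314 in edgeR). Without control 4 its adjusted p was 0.0352, with a log2 fold change of 1.30. Over 14 alternatives (other tests, filters or a mouse left out) the log2 fold change was between 0.47 and 1.30. The adjusted p of *Itgax* reached 0.877 among them, and 13 of these settings kept it above 0.05. *Itgb1* was at 37.4, 39.4 and 21.8 CPM in lymphoid-like cells of control mice and at 77.7, 83.5 and 54.7 CPM in those of cKO mice (1.20 ± 0.54, adjusted p = 0.694 in edgeR).

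Macrophage-like cells could be tested only with sums from 10 cells, since 1 cKO mouse had 20 or more. With 3 control and 4 cKO mice, 0 of 10 members passed in this type (0.527% of 11391 genes did, edgeR). That share counts adjusted p-values and is no background for unadjusted ones. An unadjusted p below 0.05 was found for 3 of 10 members. These were *Itgb5* (-0.93 ± 0.36), *Itgam* (-0.74 ± 0.31) and *Itgav* (-1.03 ± 0.44), with adjusted p of 0.361, 0.439 and 0.455 (edgeR), while the median log2 fold change of all genes in this type was -0.26. The log2 fold change of *Itgam* in monocyte-like cells exceeded that in macrophage-like cells by 1.54 (95% interval 0.68 to 2.39), with an adjusted p of 0.252 over all genes in edgeR. The fit had no term for the mouse, so both sums of a mouse counted as independent. This interval therefore does not measure the spread over mice. Of the 10 members, 0 passed this test of the difference, and 0.0176% of 11391 genes passed. Only *Itgam* had an unadjusted p below 0.05, for which no share of all genes is given. The intervals of *Itgb1*, the chain for which binding of CD98hc is best known, were -0.27 to 1.03 in monocyte-like cells and -1.01 to 0.30 in macrophage-like cells.

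Other chains were sparse. Of 14 further integrin genes in the table, *Itga1*, *Itga5*, *Itga6*, *Itga8*, *Itga9* and *Itgb3* were found in at least 20 cells, and the remaining 8 had between 2 and 6 UMIs each. *Itga5*, a fibronectin receptor chain that pairs with β1, was at 19.02 ± 5.64 CPM in control and 31.7 ± 10.5 CPM in cKO mice (log2 fold change 0.85, adjusted p = 0.126). *Itga8*, with 28 of 45 UMIs in dendritic cell-like cells, had a log2 fold change of -1.82 (adjusted p = 0.115). *Itga6* (-0.43, 0.416), *Itga1* (0.41, 0.595), *Itgb3* (0.12, 0.94) and *Itga9* (-0.02, 0.97) had larger adjusted p-values in the same edgeR test, so 0 of 6 chains passed.

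The genes around integrins were counted from lists of activators and adaptors, ligands and membrane partners. The share of all genes that passed the same test, 4.48%, is the background for each list. The mix of cell types in the sums over all cells moved with the condition, and its part in the values of these lists was not tested. Of 45 activators and adaptors tested in all cells, 1 rose and 0 fell. The one that rose was *Rasgrp2* (0.78 ± 0.19, adjusted p = 0.0431), an exchange factor that activates Rap1 upstream of integrins. *Syk* (0.59, adjusted p = 0.095), *Iqgap1* (0.51, 0.101), *Actn1* (-1.12, 0.111) and *Rap1b* (0.61, 0.113) followed, and the integrin activators *Tln1* (0.24, 0.33) and *Fermt3* (-0.04, 0.946) did not pass. The median log2 fold change of the list was 0.23, beside -0.03 for all genes.

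Among 32 ligands tested, *C3*, the source of the complement fragment bound by αMβ2, rose (1.26 ± 0.22, adjusted p = 0.0104) and 0 fell. The laminin genes *Lama2* (-2.68, 0.0548) and *Lama4* (-2.70, 0.062), *Thbs1* (1.20, 0.0578) and *Col3a1* (-1.30, 0.112) did not pass, nor did the receptors of β2 and α4 chains, *Icam1* (0.58, 0.12) and *Vcam1* (-0.16, 0.896). The summed level of 10 stromal markers was between 688 and 2252 CPM in control and between 251 and 841 CPM in cKO mice, and its part in the values of the laminin and collagen genes was not tested. Of 18 membrane partners, *Slc7a8*, a light chain of CD98hc transporters, rose (1.20 ± 0.29, adjusted p = 0.0376) and the tetraspanin *Cd63* fell (-0.73 ± 0.14, adjusted p = 0.0154). *Plaur* (1.24, 0.0527), *Cd36* (-1.59, 0.0698), *Cd81* (-0.83, 0.119) and *Cd47* (0.13, 0.611) did not pass, and *Slc3a2* had a log2 fold change of 0.02 (adjusted p = 0.976). Within cell types *Slc3a2* did not pass either, with log2 fold changes of -0.91 (95% interval -1.46 to -0.36, adjusted p = 0.152) in *Saa3*-led, -0.64 (-1.15 to -0.13, 0.564) in dendritic cell-like, -0.62 (-1.11 to -0.12, 0.475) in *Fam213b*-led, -0.55 (-1.17 to 0.07, 0.848) in *Cebpb*-led and -0.20 (-0.72 to 0.33, 0.933) in monocyte-like cells. In lymphoid-like and low-depth macrophage-like cells it was 0.39 (-0.12 to 0.90) and 0.36 (-0.71 to 1.43), and over the cells left without the 3 other lineages it was -0.38 (-0.78 to 0.02, 0.333). No gene of these lists passed within a single cell type in edgeR.

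Genes with profiles most like those of the members were ranked by Pearson correlation over 47 sums of a mouse and a cell type, among 4749 genes. The sums share mice and depth, so the values are descriptions. *Itgb2* was most like *Coro1a* (0.81), *Fermt3* (0.76), which encodes the kindlin of leukocytes, and *Bin2* (0.76). *Itgae* was most like *Xcr1* (0.79), a receptor of type 1 dendritic cells, *Rpl17* (0.78) and *Id2* (0.74), and *Itgax* was most like *H2-DMb1* (0.79), *Spint1* (0.78) and *H2-DMb2* (0.77). *Itgam* went with *Pirb* (0.86), *Tlr2* (0.85) and *Tmem51* (0.85), and *Itgal* with *Sema4d* (0.84), *Gvin1* (0.77) and *Fosl2* (0.75). *Itgb7* went with *Map4k1* (0.84), *Lsp1* (0.79) and *Tagap* (0.78), and *Itga4* with *Birc6* (0.90), *Trim25* (0.90) and *Rbm39* (0.89). *Itgb5* went with *Daglb* (0.83), *Sirpa* (0.78) and *Lamp1* (0.78), *Itgav* with *Dennd1a* (0.79), *Tgfbr1* (0.78) and *Flcn* (0.73), and *Itgb1*, with the lowest values, with *Diaph2* (0.66), *Tmem43* (0.64) and *Plbd2* (0.64). Among the members themselves, the highest correlations were between *Itgb5* and *Itgam* (0.67) and between *Itgb7* and *Itga4* (0.66), and the lowest was between *Itgb5* and *Itgae* (-0.63).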

How the data were processed

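Single-cell 3′ libraries (10× Genomics, a well per mouse, all on 1 cartridge and day) of 4 control and 4 cKO mice were used. The authors aligned reads to mm10 with Cell Ranger and STAR 2.5.3a and deposited whole-number UMI counts per gene and cell, not normalized. No column of cells was left without a sample. Barcodes were kept with log10 UMIs above 2.8, log10 genes above 2.6, at most 5% mitochondrial UMIs and no hemoglobin UMI, as the study's methods state. Clusters came from scran 1.30.0 normalization and Ward clustering into 9 clusters on 11634 genes, without integrin and partner genes or those the study lists as changed. A cluster was named where markers were among its leading 10 genes. Sums of UMI counts were made over all cells of a mouse and over its cells in each cluster (20 cells or more) and tested with edgeR 4.0.16 (TMM, quasi-likelihood, genes with over 1 CPM in at least 3 sums and found in at least 20 cells). P-values were adjusted by Benjamini-Hochberg over all genes tested, with a threshold of 0.05. CPM values are UMIs per 1000000 UMIs of the sum. Standard errors and 95% intervals were derived from the p-value and its degrees of freedom. Cell types were compared within mice by two-sided exact sign-flip tests, with p-values not adjusted, and shares by exact permutation over 70 arrangements of mice (two-sided). DESeq2 1.42.0, limma 3.58.1 and other settings were alternatives. Scripts were tested on simulated data. Scrublet (scanpy 1.11.5) doublet calls were kept. All 10 members, 6 other chains found in at least 20 cells, and of each list those past the threshold with the 5 lowest adjusted p are named, besides *Slc3a2*, *Tln1*, *Fermt3*, *Icam1*, *Vcam1* and *Cd47*, and the 3 genes most alike per member. The members and lists were chosen with earlier results of these data known. The 497531 to 3762314 UMIs per mouse and 4 mice per group set the precision.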

Additional observations from a re-analysis of the deposited data

Results flagged for a closer look

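In 50 groups of 4 mice, 5 held a mouse whose distance from the other 3 exceeded Dixon's 95% critical share of the range of the group, where chance gives about 1 in 20. cKO 5, the mouse with the fewest cells and 28.9% doublet calls, stood apart for *Itga4* (90.4 CPM over all cells, the other cKO mice at 56.3 to 60.5) and for *Itgb7* (125 CPM over all cells, the other cKO mice at 146 to 149). Control 3, the control mouse with the fewest cells, stood apart for *Itgal* in dendritic cell-like cells (55.3 CPM) and for the share of *Cebpb*-led cells (21.2%). Control 2 stood apart for the share of *Fam213b*-led cells (10.5%).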

How the results depend on the processing

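No paired analysis was possible because control mice are numbered 1 to 4 and cKO mice 5 to 8, so the groups share no number. Of 611 values under other settings, 517 kept their direction and their side of the threshold (or, for counts, stayed within 1.5 times) and 23 changed direction. Over all cells, 1 member passed, and the count was 2 with at least 1000 UMIs per cell or without the filter on low counts, 3 with DESeq2 or the likelihood ratio test, 0 without doublet calls, and 0 to 1 with a mouse left out. Of all genes, 4.48% passed in the fit reported, 4.54% with at least 1000 UMIs, 4.70% without the filter, 5.54% with DESeq2, 9.12% with the likelihood ratio test and 3.07% without doublet calls. Within cell types 0 passed, and 0 to 1 with a mouse left out. Without lymphoid-, stromal- and dendritic cell-like cells, 1 passed, and 0 to 3 with a mouse left out, which was tried after the data were seen. In the within-mouse comparisons 0 chains had an exact p below 0.05 in 4 mice. With at least 10 cells, 6 did for monocyte-like and 5 for dendritic cell-like against macrophage-like cells, also without doublet calls (added after seeing the data). With all genes used for the clustering 6 and 6 did, where more mice could be compared. That clustering used the integrin genes themselves, so it is no independent check of these chains. The cause of the other changes was not tested. Total counts in place of TMM moved the median log2 fold change of all genes from -0.03 to -0.13. Near 0, *Itgb5* turned to -0.014 with total counts, -0.021 without both mice of fewest cells and -0.0074 without doublet calls, and to -0.53 without the 3 other lineages, while *Itgb7* turned to 0.999 there. *Itga4* turned to -0.013 without both mice. *Slc3a2* turned to -0.079, -0.048, -0.070 and -0.38 under these 4 settings. With a mouse left out, the ranges were -0.029 to 0.33 for *Itgb1*, -0.011 to 0.18 for *Itgb5*, -0.0046 to 0.19 for *Itga4*, -0.10 to 0.26 for *Slc3a2*, 0 to 4.01 for *Itgae* in *Cebpb*-led cells and -0.77 to 0.23 for *Itgae* in monocyte-like less macrophage-like cells. For *Itgam* that difference turned to 0.047 with at least 10 cells, 0.041 with all genes and 0.0061 with at least 10 cells and no doublet calls, and for *Itgax* in dendritic cell-like less macrophage-like cells it turned to -0.12 with all genes. The condition could be compared in macrophage-like cells, and between them and monocyte-like cells, only with at least 10 cells per sum.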
